A study of Mus musculus with 4 samples.

Results

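The genes described here build, branch, cap, sever and anchor actin filaments, the machinery with which microglia extend and retract their processes. They are 38 genes, named by symbol, out of the 55471 genes of the deposited count table, and all 38 symbols were found in it through their Ensembl identifiers on GRCm38 with the GENCODE M21 annotation. The series holds 4 RNA-seq libraries of brain cells isolated with magnetic beads against CD11b, an integrin subunit carried by microglia and other myeloid cells. All 4 belong to 1 group. The mice had received PLX5622, an inhibitor of the colony-stimulating factor 1 receptor that depletes microglia, for 7 days, followed by 10 days without it, 17 days in all, so that the brain was being refilled with microglia. They were 10 to 13 weeks old, and the labels name no strain, sex, transgene or Cre driver. With no untreated group among the libraries analysed here, the data give the levels of these genes and how they vary between libraries, and they hold no contrast with untreated microglia. Libraries carry the replicate numbers 1 to 4 of the labels, which only name them. Whether they stem from different animals is not stated, so every p-value below reflects the variation among 4 samples, which may be technical.

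Actin exists as single molecules (G-actin) and as filaments (F-actin), and cells move by adding monomers at one end of a filament while the other end is taken apart. Profilin and the thymosins hold the monomer pool, the Arp2/3 complex starts new branches when proteins of the WASP and WAVE families switch it on, formins and Ena/VASP proteins lengthen filaments, capping protein stops them and cofilin severs them. Microglia use this machinery to survey the brain with moving processes and to engulf debris, and several of the genes below (Coro1a, Nckap1l, Was, Dock2, Dock8, Lcp1, Fermt3, Aif1) are the blood-cell members of families whose other members serve other tissues.

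Total counts were 23036202 to 24487418 per library, and mitochondrially encoded genes took 1.21 to 1.66% of them. All 18 markers of homeostatic microglia were detected, which here means at least 1 CPM (a gene's counts scaled to a library of 1000000) in every library, and their median level was 1855 to 2248 CPM. Libraries 3 and 1 stood apart. Library 3 had the lowest level of all 9 markers of choroid plexus and ependyma, the tissue that lines the ventricles and makes cerebrospinal fluid, with a summed level of 16080, 16082, 3349 and 22444 CPM in libraries 1 to 4. Markers of endothelial cells summed to 974, 999, 231 and 854 CPM, and those of pericytes and smooth muscle to 693, 651, 102 and 449 CPM. Library 1 had the highest level of all 10 markers of border-associated macrophages, with summed levels of 1659, 1176, 1190 and 1009 CPM, and of all 6 markers of erythroid cells, with 365, 174, 32.4 and 65.9 CPM. No list of markers had a gene with its count at 0 in every library. In bulk RNA, fewer cells of a type and less RNA per cell cannot be told apart.

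All 38 actin genes were detected, and all 38 also reached 10 CPM in every library. Their summed share of a library's counts was 2.04, 1.71, 1.94 and 1.67% in libraries 1 to 4, a mean of 1.84 ± 0.180% (SD, n = 4). Without library 3 the mean was 1.81%. Actb and Tmsb4x alone made up 34.6 to 45.5% of the counts of the set. By mean level, 3 genes lay above 1000 CPM, 27 lay between 100 and 1000 CPM, and 8 lay below 100 CPM. The median gene of the set stood at 299 CPM, against 22.2 CPM over the 14112 genes with enough counts to be tested.

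**Figure D1:**
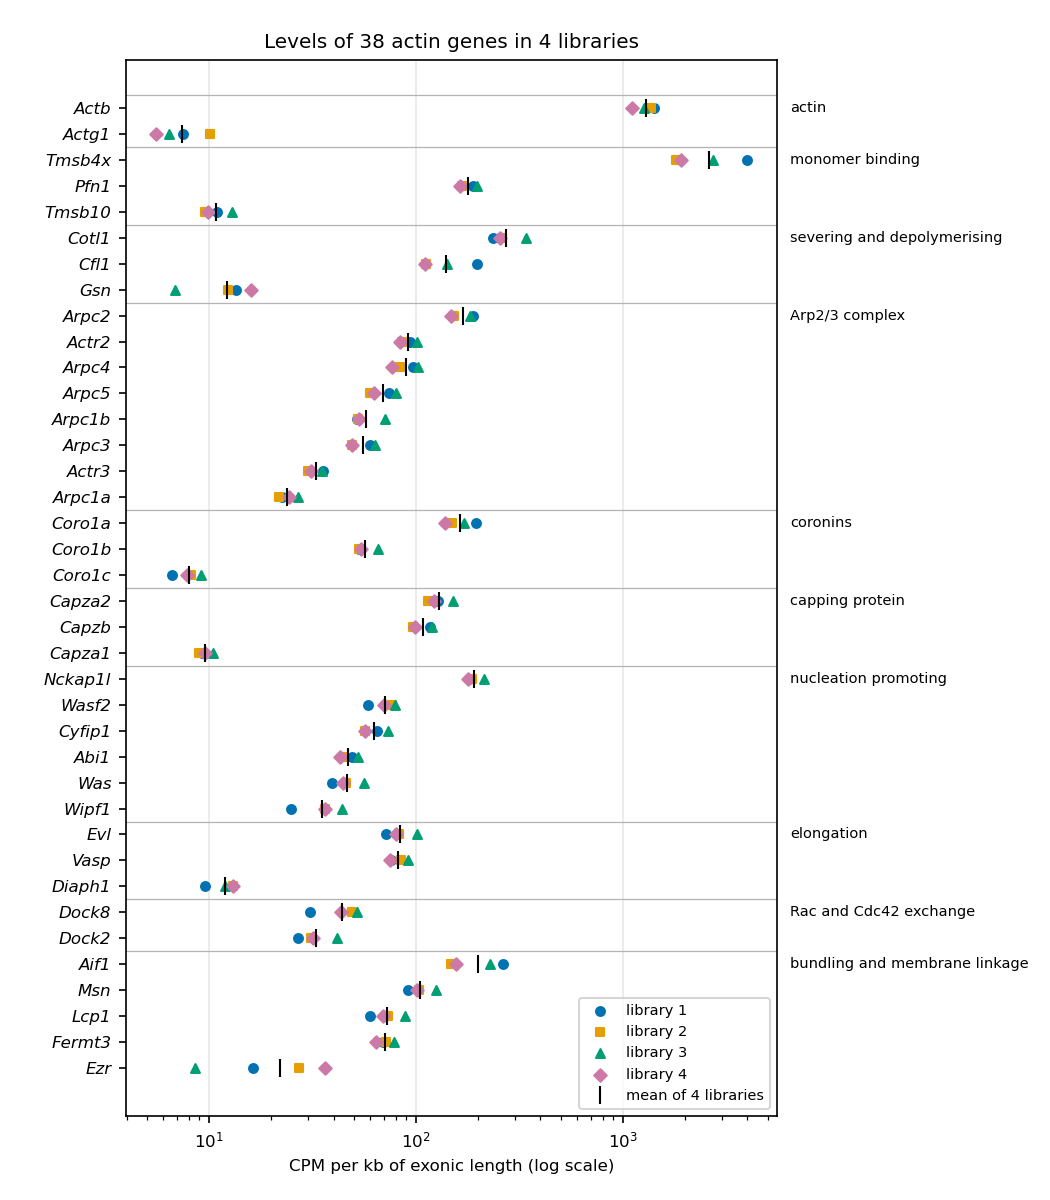
Level of each of the 38 genes in CPM per kilobase of exonic length, on a log scale, with a point for each library, a tick at the mean of 4 libraries and the genes grouped by role. Tmsb4x and Actb lie furthest right, with means of 2612 and 1290 CPM per kb, Actg1 lies lowest at 7.41, and the points of Ezr are spread furthest.

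The actin genes themselves lay far apart. Actb (chr5:142903115-142906754, minus strand), cytoplasmic beta-actin, had 3768, 3673, 3401 and 2981 CPM in libraries 1 to 4. Actg1 (chr11:120345690-120348542, minus strand), cytoplasmic gamma-actin, had 19.9, 27.0, 17.1 and 14.7 CPM. Both genes were lowest in library 4, and no library of Actg1 came near any library of Actb. Levels of different genes are compared per kilobase (kb) of exonic length, and on that scale Actb was 178-fold above Actg1 (log2 ratio 7.48 ± 0.27, n = 4). The Actg1 level carries a limit, since only 43.3% of the 50-base stretches of its longest coding transcript occur in no other gene's transcript, against 85.8% for Actb. The processed pseudogene Gm12715 alone shares 51.1% of the stretches of Actg1 and held 3 counts over the 4 libraries. How reads that match several genes were counted is not given in the sources used here. With each gene divided by its unique exonic length instead, the log2 ratio of Actb to Actg1 was 6.49.

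The promoter of Actg1 is shown because it holds a CArG box, the motif bound by serum response factor (SRF), which drives many actin genes when the monomer pool is low. Among the promoter windows of RefSeq (GRCm38.p6, 250 bases before to 50 bases after each start site), 32 of the 38 genes had 42 windows. Actb, Cotl1, Coro1b, Cyfip1, Diaph1 and Nckap1l were not analysed here. A CArG box was found on either strand in 2 of these 42 windows (4.76%), those of Actg1 and Arpc4, against 535 of all 32851 windows (1.63%). The core letters GAGGAAGT of the motif of PU.1, the myeloid master factor, were found on either strand in 1 of the 42 windows (2.38%), that of Arpc1b, against 1052 of all windows (3.20%). The 2 motifs did not overlap in any of these windows. A match is a run of letters, not a site shown to be bound. The Actg1 window is chr11:120348446-120348745 on the minus strand, with the CArG box, which starts 90 bases before the start site, in capitals:
Actg1 promoter: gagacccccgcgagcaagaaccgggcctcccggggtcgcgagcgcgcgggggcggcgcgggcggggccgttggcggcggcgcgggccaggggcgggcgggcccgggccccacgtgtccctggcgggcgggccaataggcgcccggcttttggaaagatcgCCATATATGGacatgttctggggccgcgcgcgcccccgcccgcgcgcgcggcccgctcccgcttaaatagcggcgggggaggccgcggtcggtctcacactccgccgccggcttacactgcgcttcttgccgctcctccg
Srf had 30.2 ± 3.75 CPM (SD, n = 4), and its coactivators Mrtfa and Mrtfb, which sense free actin monomers, had 55.4 ± 6.26 and 28.2 ± 6.52 CPM.

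Among the monomer-binding genes, Tmsb4x alone held the highest level per length of the set. Tmsb4x (chrX:167207093-167209315, minus strand), thymosin beta-4, which sequesters actin monomers, had 5481, 2487, 3732 and 2625 CPM. Library 1 was the highest, and libraries 2 and 4 lay close together. Its relative Tmsb10 (chr6:72957347-72958748, minus strand), thymosin beta-10, had 14.0, 12.2, 16.6 and 12.7 CPM. Per kb, Tmsb4x was 230-fold above Tmsb10 (log2 ratio 7.85 ± 0.45, n = 4), and its log2 ratio was highest in library 1, at 8.51. For Tmsb10 56.5% of the 50-base stretches were unique, against 100% for Tmsb4x. Divided by unique exonic length, the log2 ratio was 7.02. The coding sequences of this pair are shown to let the reader see how close they are, taken from GENCODE M21 transcripts on GRCm38, both minus strand, with the 40 positions at which they differ in capitals:
Tmsb4x, chrX:167207504-167208036: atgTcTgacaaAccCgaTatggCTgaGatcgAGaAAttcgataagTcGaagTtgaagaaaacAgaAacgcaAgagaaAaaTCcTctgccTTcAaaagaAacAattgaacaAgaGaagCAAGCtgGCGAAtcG
Tmsb10, chr6:72957621-72958012: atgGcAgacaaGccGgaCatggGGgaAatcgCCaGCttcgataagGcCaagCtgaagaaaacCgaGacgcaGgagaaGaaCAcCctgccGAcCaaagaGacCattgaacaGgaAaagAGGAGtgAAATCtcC
Both are 132 bases long and 69.7% identical. Pfn1, profilin 1, which hands monomers to growing filament ends, had 456, 402, 473 and 391 CPM and was among the steadier genes, with a highest library 1.21-fold above the lowest.

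Of the genes that take filaments apart or hold them, Cfl1, cofilin 1, the main severing protein, had 560.0, 319, 400.4 and 314 CPM. Gsn, gelsolin, which severs and caps filaments in the presence of calcium, had 42.8, 38.9, 21.6 and 50.7 CPM. Cotl1, coactosin-like protein, which binds filaments and competes with cofilin, had 375, 417, 543 and 407 CPM. The 3 genes peaked in different libraries, Cfl1 in library 1, Gsn in library 4 and Cotl1 in library 3, and Gsn was lowest in library 3. Per kb of exonic length Cotl1 stood at 273 ± 46.1 CPM, below Tmsb4x and Actb alone. By longest coding transcript it came sixth, below Pfn1 (500.0 ± 46.8 CPM per kb), Aif1 (348 ± 99.6) and Capza2 (299 ± 36.0) as well.

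The Arp2/3 complex contains 7 subunits, with alternative forms for some of them, and 8 of the genes here encode them. Actr2 and Actr3, the actin-related subunits that form the base of the new branch, averaged 475 ± 42.9 and 152 ± 12.6 CPM. Arpc2, a subunit of the core that grips the mother filament, had 385, 309.7, 371 and 301 CPM. Arpc4, its core partner, averaged 208 ± 27.4 CPM, Arpc3 153 ± 20.6 CPM and Arpc5 157 ± 21.5 CPM. The alternative subunits Arpc1a and Arpc1b differed in level, with 57.9, 55.8, 69.4 and 62.8 CPM for Arpc1a, and 266, 268, 363 and 272 CPM for Arpc1b. Per kb, Arpc1b was 2.37-fold above Arpc1a. The 8 genes moved little between libraries, the largest fold from lowest to highest being 1.36, in Arpc1b.

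Although their products meet in 1 complex, the transcripts of the subunits were not at 1 level. Per kb, the highest Arp2/3 gene, Arpc2, was 7.02-fold above the lowest, Arpc1a, over the mean of the libraries and 6.05- to 8.39-fold within them. Arpc1a and Arpc1b are alternative forms, so Arpc1a alone gives only part of the level of that subunit. The next lowest gene was Actr3, with 32.9 ± 2.73 CPM per kb against 168 ± 20.8 CPM per kb for Arpc2. The log2 ratio of Actr3 to Actr2 per kb was -1.47 ± 0.06 (n = 4), and -0.49 with unique exonic length, since 50.2% of the stretches of Actr3 are unique. Arpc1b shares stretches with its neighbour Pdap1, and 57.8% of its own are unique. With unique length its log2 ratio to Arpc1a was 2.01.

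Coronins bind filaments and help to turn branches over. Coro1a, the form of blood cells, had 545, 414, 475 and 384 CPM. Coro1b, which acts on Arp2/3 branches, had 171, 169.6, 211 and 174 CPM, and library 3 stood above the other 3 libraries, which lay close together. Coro1c averaged 77.0 ± 9.93 CPM. Per kb, Coro1a was 2.87-fold above Coro1b and 20.4-fold above Coro1c, the second of which was 11.8-fold with the longest coding transcript as the length.

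Capping protein is a heterodimer of 1 alpha and 1 beta subunit that closes the growing ends of filaments. Capza2, an alpha subunit, had 751, 677, 889 and 722 CPM. Capzb, the beta subunit, had 385, 319.8, 394 and 326 CPM, and Capza1, the other alpha subunit, had 35.2, 33.7, 39.5 and 36.0 CPM. All 3 were highest in library 3. Per kb, Capza2 was 13.5-fold above Capza1 (log2 ratio 3.75 ± 0.08, n = 4), but this size depends on the length used. It was 4.72 on the log2 scale with the longest coding transcript and 1.61 with unique exonic length, because Capza1 has the smallest unique share of the set, at 22.6%.

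The genes that switch Arp2/3 on were led by Nckap1l (Hem1), the blood-cell subunit of the WAVE complex, with 1068, 1114, 1271 and 1055 CPM. Cyfip1, the WAVE subunit that binds the GTPase Rac, averaged 749.5 ± 95.1 CPM, and Wasf2 (WAVE2), the subunit that activates Arp2/3, averaged 446 ± 58.6 CPM. Abi1, the adaptor of the complex, averaged 190.0 ± 17.2 CPM. Within the WAVE complex, with its small subunit Brk1 included, the genes were 4.03-fold apart per kb, from Nckap1l down to Abi1. Was, the blood-cell protein WASP that answers to Cdc42, averaged 111 ± 17.1 CPM, and Wipf1, which binds and stabilises WASP, had 146, 215, 258 and 213 CPM. Wipf1 was lowest in library 1 and had the largest fold of the 6 genes of the set in this role, 1.76. Per kb, the log2 ratio of Was to Wasf2 was -0.62 ± 0.10 (n = 4).

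Among the genes that lengthen filaments, the Ena/VASP proteins Vasp and Evl averaged 214 ± 20.7 and 247 ± 35.6 CPM. Their log2 ratio per kb was -0.03 ± 0.10, with a positive value in 2 libraries and a negative one in the other two, so these neighbours did not differ beyond their spread. Diaph1, a formin, averaged 75.6 ± 10.3 CPM. The exchange factors Dock2, which loads Rac, and Dock8, which loads Cdc42, were both lowest in library 1 and highest in library 3. Dock2 had 308, 356, 473 and 365 CPM, and Dock8 had 311, 493, 521 and 439.8 CPM. Dock8 lay above Dock2 per kb in all 4 libraries, by 0.41 ± 0.19 on the log2 scale, and this direction turned to -0.06 when the longest coding transcript was taken as the length.

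Among genes that bundle filaments or tie them to the membrane, Lcp1 (L-plastin), the bundling protein of blood cells, had 573, 694, 840.4 and 659.7 CPM. Aif1, which encodes IBA1, the calcium-binding actin bundler used to stain microglia, had 406, 226, 349 and 238 CPM, so libraries 1 and 3 lay above libraries 2 and 4. Fermt3 (kindlin-3), which activates integrins in blood cells, averaged 409.7 ± 35.3 CPM. Msn, moesin, the main link between filaments and the membrane in leukocytes, had 582, 652, 789 and 637 CPM. Per kb, Msn was 5.42-fold above Ezr, ezrin, its relative in epithelia, with 2.76- to 14.6-fold within single libraries. It was 3.89-fold without library 3, and 8.58-fold with the longest coding transcript as the length.

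In the order of levels per kb of exonic length, Tmsb4x (2612 ± 1009), Actb (1290 ± 132) and Cotl1 came first, followed by Aif1 (199 ± 56.9) and Nckap1l (189.9 ± 16.7). The lowest were Actg1 (7.41 ± 2.00), Coro1c (7.97 ± 1.03), Capza1 (9.55 ± 0.656), Tmsb10 (10.9 ± 1.54), Diaph1 (11.9 ± 1.62) and Gsn (12.2 ± 3.89). Of the 37 neighbouring pairs in this order, 35 had overlapping ranges over the 4 libraries. The exceptions were Tmsb4x over Actb and Actb over Cotl1. The ratios between related genes were tested for 11 pairs by flipping their signs in all ways over the 4 libraries, an exact permutation test, two-sided. In 10 pairs the ratio had the same direction in all 4 libraries, which gives an exact permutation p of 0.125 (0.138 adjusted over the 11 pairs), the smallest that 16 sign flips allow, so no pair could pass 0.05. For Vasp over Evl the exact p was 0.625.

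**Figure D2:**
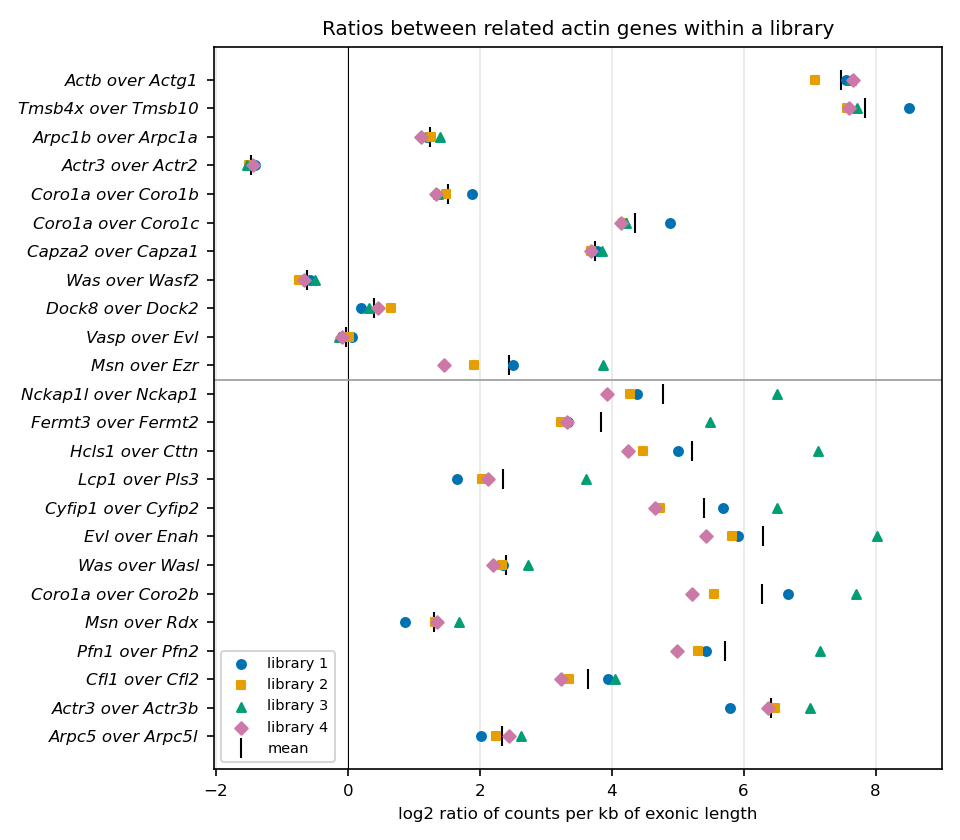
Log2 ratio of counts per kb between related genes in each library, with a point per library and a tick at the mean, the 11 tested pairs above the line and 13 further pairs below it. Most tested pairs have points close together, and Msn over Ezr and the pairs below the line extend furthest to the right in library 3.

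Most of the 38 genes varied little between libraries. The highest library was less than 1.5-fold above the lowest in 29 genes and more than 2-fold above it in 3, namely Ezr, Gsn and Tmsb4x. The median fold was 1.36, against 1.43 over all tested genes, and 30 of 38 had a coefficient of variation under 20%. Over all tested genes the median coefficient of variation was also under 20%, and the median fold was also under 1.5. Small variation by these lines is therefore not particular to the 38 genes. The median level of the 38 genes was above that of all tested genes. Their folds and coefficients were not compared with those of genes of similar level. Spread was tested in edgeR by the fit of a negative binomial model without groups, which asks whether the counts of a gene vary more than the trend for genes of its level. It called 1 of the 38 genes, Ezr, at an adjusted p of 0.05, against 3.28% of all tested genes (463 of 14112). Of the 38, 3 had an unadjusted p below 0.05, against 9.57% of all tested genes (1350 of 14112). A stricter test based on the quasi-likelihood variances of edgeR called none of the 38 and none of the 14112 genes (1 of 38 and 658 of 14112 at an unadjusted p under 0.05). Since it called no gene at all, it does not tell the 38 genes from the rest. DESeq2 marked none of the 38 as dispersion outliers, against 0.0354% of the 14112 genes. Under DESeq2 size factors, TMM on filtered genes, total counts and scaling on homeostatic markers, the edgeR test again called 1 of 38, against 3.27, 3.07, 3.31 and 3.22% of all tested genes. Without filtering low counts it also called 1, against 419 of 27874 genes. It called 1 of 38 without library 1 (2.98% of all tested genes) and without library 2 (1.94%), and none of 38 without library 3 (0.716%) and without library 4 (1.82%).

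Ezr (chr17:6738041-6782784, minus strand) had 53.5, 89.7, 28.1 and 120.0 CPM in libraries 1 to 4, a mean of 72.8 ± 40.3. Library 3 was the lowest and library 4 the highest, 4.27-fold apart. The adjusted p in edgeR was 0.000185. It was 0.198 without library 3 and 0.0667 without library 4, so the call rested on both. Over all alternatives it ran from 4.64e-06, without library 1, to 0.889, in the quasi-likelihood test. That test called no gene at all, and the erythroid marker Hbb-bs had the same 0.889 in it, so it does not set Ezr apart. Tmsb4x, with its high library 1, had an adjusted p of 0.130, and Gsn, with its low library 3, had 0.497. Cfl1 and Aif1, both highest in library 1, had adjusted p-values of 0.629 and 0.539. The edgeR test called 5 of the 10 border-associated macrophage markers and all 5 erythroid markers that could be tested. All markers of these lists were highest in library 1 too, and their part in the levels of Tmsb4x, Cfl1 and Aif1 was not tested.

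Ezrin is abundant in epithelia such as the choroid plexus. Each of the 9 choroid plexus and ependyma markers was lowest in library 3 and highest in library 4, as Ezr was, and 7 of the 9 had all 4 libraries in the same order as Ezr. Their median fold of library 4 over library 3 was 6.80 (5.44 to 7.05), against 4.27 for Ezr and 2.34 for Gsn. Other lists shared the low library 3, with median folds of library 4 over library 3 of 4.07 for endothelial cells, 4.74 for pericytes and smooth muscle, 2.25 for astrocytes and 2.01 for erythroid cells. The edgeR test called 9 of 9 choroid plexus and ependyma markers, 9 of 10 endothelial, 7 of 9 pericyte and smooth muscle, 1 of 8 astrocyte and none of 18 homeostatic microglia markers. The median level of the choroid plexus and ependyma list was 81.5, 78.5, 16.6 and 102 CPM. No marker of that list was at 0 in any library. The part of these cells in the values of Ezr and Gsn was not tested.

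**Figure D3:**
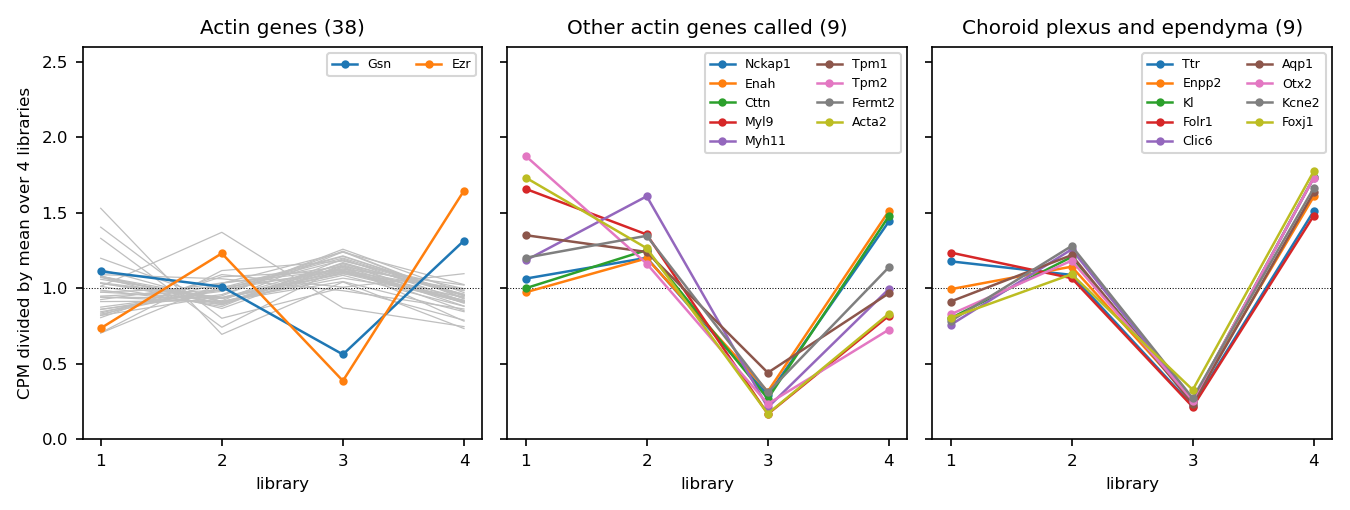
CPM of a gene divided by its mean over the 4 libraries, by library, for the 38 genes (Ezr and Gsn in colour, the others grey), the 9 further actin genes called for spread and the 9 markers of choroid plexus and ependyma, with a line per gene to guide the eye. Ezr is lowest in library 3 (28.1 CPM) and highest in library 4 (120.0 CPM), the 9 markers are lowest and highest in the same libraries, and the 9 further genes are lowest in library 3.

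Most of the set stood highest in library 3, while Ezr and Gsn were lowest in it. Actg1 and Actb also lay below their own mean there. Of the 38 genes, 27 were highest in library 3, 7 in library 1, 1 in library 2 and 3 in library 4. Over all tested genes 28.3% were highest in library 3, 34.2% in library 1, 16.5% in library 2 and 21.0% in library 4. The lowest library was 1 for 12 of the 38 genes, 2 for 11, 3 for 2 and 4 for 13, against 31.0, 19.5, 29.2 and 20.3% of all tested genes. The size was small. The median deviation of the 38 genes from their own mean was 0.18 in library 3 on the log2 scale, -0.02 in library 1 and -0.09 in libraries 2 and 4, against medians of 0.005 to 0.03 over all tested genes. The 18 homeostatic microglia markers had median deviations of 0.10, -0.05, 0.11 and -0.13. The count depends on the scaling, and so does the share over all tested genes. It was 24 of 38 on total counts, where 18.8% of all tested genes were highest in library 3. It was 14 of 38 when libraries were scaled on the homeostatic markers, where 6.70% of all tested genes were highest in library 3. The low levels of other cells' markers in library 3 stand beside this, and their part in it was not tested.

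**Figure D4:**
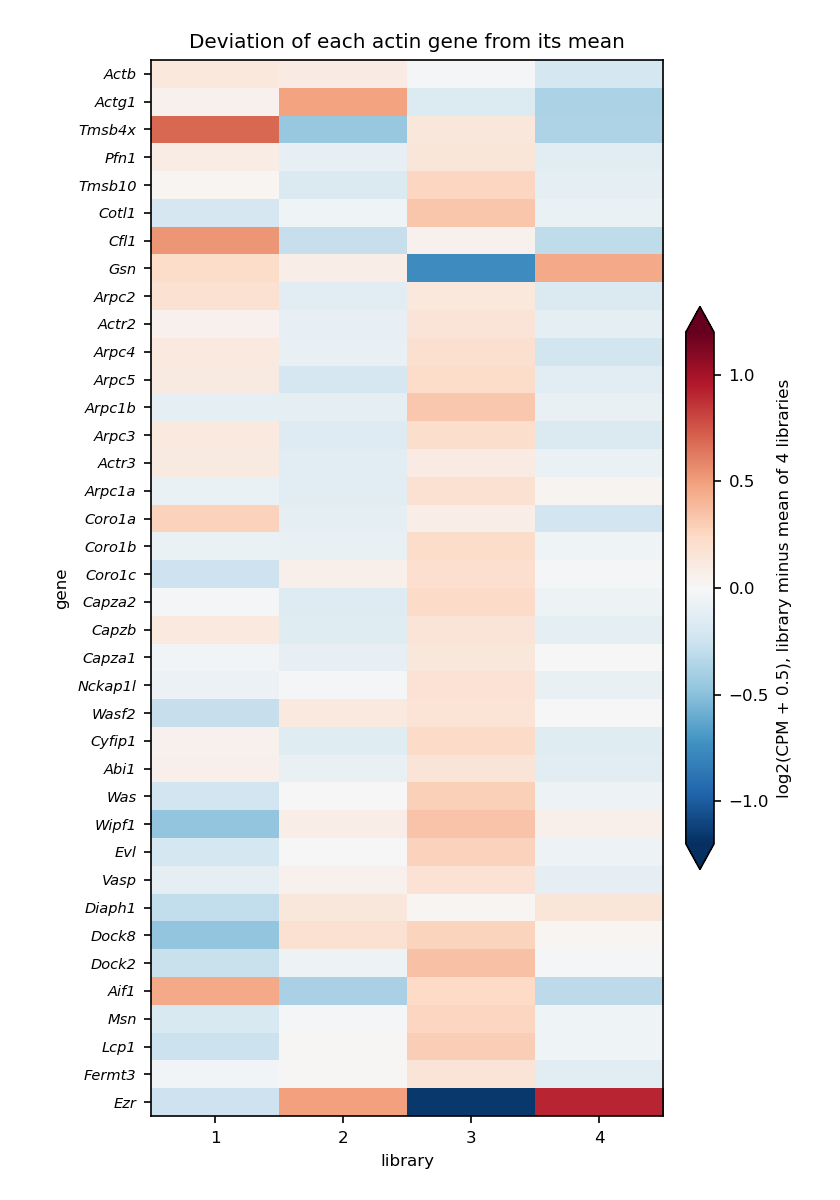
Deviation of each of the 38 genes from its own mean over the 4 libraries, in log2(CPM + 0.5), with genes grouped by role and a column per library. Library 3 is red, above the mean, for most genes. It lies below the mean for Ezr (-1.16), Gsn (-0.75), Actg1 (-0.16) and, barely, Actb (-0.02). Library 1 is red for Tmsb4x, Cfl1 and Aif1 and blue for Wipf1, Dock2 and Dock8.

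In libraries 1, 2 and 4 the deviations ran with transcript length. In library 1 the 14 genes with a longest coding transcript under 2000 bases had a median deviation of 0.11 on the log2 scale, the 17 from 2000 to under 4000 bases had -0.04 and the 7 of 4000 bases or more had -0.28. The long genes Dock8, Dock2, Wipf1, Wasf2 and Diaph1 were lowest in library 1, 5 of the 7, against 1 of the 14 short ones. Spearman's rank correlation between length and deviation over the 38 genes was -0.605 in library 1, 0.533 in library 2, 0.143 in library 3 and 0.542 in library 4. Over all 12826 tested protein-coding genes it was -0.455, 0.404, 0.047 and 0.351. Genes within a library share its depth and are not independent, and the relation is a description. Each deviation is taken from the gene's own mean over the 4 libraries. A trend in library 1 therefore brings opposite trends in other libraries, and the 4 correlations are not separate results. It runs over the whole table and is not particular to the actin genes. Its part in the levels of Tmsb4x and Aif1, with 864 and 875 bases, and of Dock8, with 7805 bases, was not tested.

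**Figure D5:**
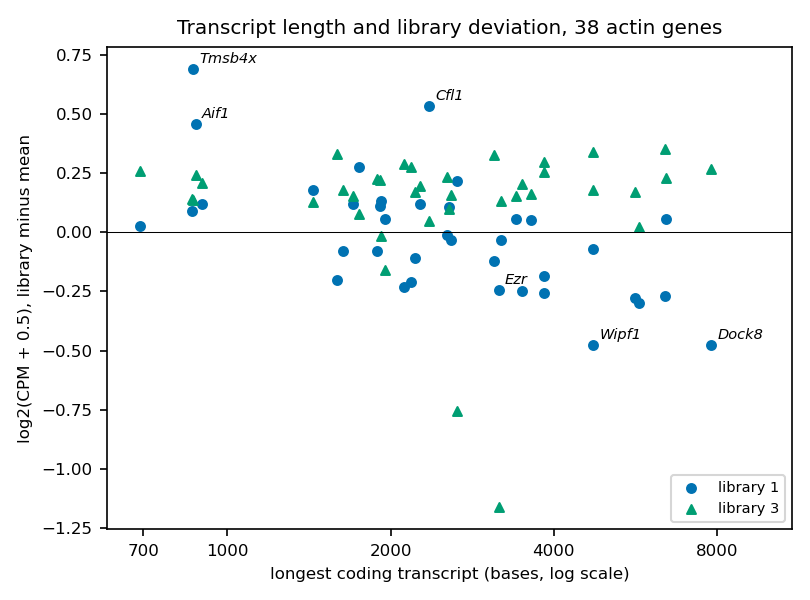
Deviation from the gene's own mean, in log2(CPM + 0.5), against the length of the longest coding transcript in bases on a log scale, for the 38 genes in libraries 1 and 3. In library 1 short genes such as Tmsb4x lie above 0 and long ones such as Dock8 lie below it, and in library 3 most genes lie above 0 at every length, with Ezr and Gsn far below it.

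Beyond the 38 genes, 110 further genes of actin dynamics were examined, of which 103 were detected and 105 could be tested. The edgeR test called 9 of the 105 (8.57%), against 3.28% of all 14112 tested genes. Of those tested, it called 3 of 39 further genes of filament assembly and 4 of 17 myosins and tropomyosins. It also called 1 of 19 crosslinkers and adhesion genes and the only muscle actin that could be tested. None of 3 genes of SRF and its coactivators was called. All 9 were lowest in library 3. They were Nckap1, Enah and Cttn (a WAVE subunit, an Ena/VASP protein and cortactin), Myl9, Myh11, Tpm1 and Tpm2 (contractile genes of smooth muscle), Fermt2 (kindlin-2) and Acta2 (smooth muscle actin). Acta2 had 170.3, 124, 16.5 and 81.7 CPM, and Nckap1 had 42.7, 48.2, 11.7 and 57.9 CPM. Without library 3 none of the 9 had an adjusted p under 0.05 in edgeR (0.107 to 1.00). The call was also lost without library 2 for Cttn, Fermt2 and Tpm1 (adjusted p 0.0972, 0.0674 and 0.0756). Without library 4 it was lost for Enah and Cttn (0.136 and 0.138), and without library 1 for Tpm2 (0.0650). All 9 had an adjusted p of 0.889 in the quasi-likelihood test, which called none of the 14112 genes. Acta2 and Myh11 are also among the pericyte and smooth muscle markers, of which 7 of 9 were called, and the part of those cells in the 9 genes was not tested. The genes with the highest CPM in their groups, not divided by length, were Ssh2 (886 ± 78.8 CPM), a phosphatase that activates cofilin, Myh9 (768 ± 193 CPM), the non-muscle myosin heavy chain, and Tln1 (732 ± 137 CPM), talin, which links integrins to actin. The lowest detected genes of the groups were Pls1 (1.36 to 5.20 CPM over the libraries), a plastin of epithelia, Diaph3 (3.54 ± 0.953 CPM), a formin, and Myl12b (17.2 ± 3.11 CPM), a myosin light chain.

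Several of the called genes are relatives of genes in the set, and 13 ratios between a gene and such a relative were read after the values had been seen, without a test. Nckap1l stood 27.4-fold above Nckap1 per kb, with 15.3- to 91.1-fold in single libraries. Fermt3 stood 14.4-fold above Fermt2, Evl 78.9-fold above Enah, Coro1a 78.1-fold above Coro2b, and Lcp1 5.12-fold above Pls3. Cyfip1 stood 42.0-fold above Cyfip2, Pfn1 52.8-fold above Pfn2, Cfl1 12.5-fold above Cfl2, and Was 5.29-fold above Wasl. Msn and Rdx, radixin, were closer, 2.48-fold apart. All 13 ratios, which also include Actr3 over Actr3b, Arpc5 over Arpc5l and, outside the 38 genes, Hcls1 over Cttn, were largest in library 3, where Nckap1, Fermt2 and Enah had 11.7, 9.07 and 8.28 CPM. Without library 3 the ratio was 18.3 for Nckap1l over Nckap1, 9.83 for Fermt3 over Fermt2, 52.9 for Evl over Enah, 23.9 for Hcls1 over Cttn (37.2 with it) and 37.9 for Pfn1 over Pfn2. Coro1a over Coro2b was then 56.3, Lcp1 over Pls3 3.83 and Cyfip1 over Cyfip2 32.5. Actr3b was not detected by the rule used here, with 15 to 38 counts per library (0.660 to 1.55 CPM), so its ratio rests on few counts. The length used moved several ratios further. By longest coding transcript Lcp1 over Pls3 was 9.69-fold, Cyfip1 over Cyfip2 73.1-fold, Pfn1 over Pfn2 97.5-fold, Msn over Rdx 3.85-fold, Actr3 over Actr3b 129-fold (85.1-fold per exonic kb) and Arpc5 over Arpc5l 1.78-fold (5.04-fold per exonic kb).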

How the data were processed

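Per the labels' protocols, each of the 4 libraries started from 300 ng of RNA, poly(A) selected and made into libraries that keep the strand. The authors deposited raw counts per Ensembl gene. The tools were featureCounts 1.6.5, STAR 2.7.2b and bcl2fastq 2.20.0.422, and the build was GRCm38, per the submitters' processing notes. Not given in the sources used here are the annotation release, the strand setting and how multi-mapping reads were treated. Of 55471 identifiers, 55230 matched GENCODE M21. The 241 others held at most 0.00526% of a library's counts and stayed in the totals. No row was a total or an unassigned class.

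Counts were scaled by TMM over all genes in edgeR 4.0.16 (R 4.3.3; factors 1.00, 1.01, 0.963 and 1.03) to CPM, with a pseudocount of 0.5 CPM on the log2 scale. A floor of 3 counts equals 0.119 to 0.132 CPM, counting error only. Spread was tested with an intercept-only negative binomial fit at the trended dispersion (chi-square, 3 degrees of freedom) and Benjamini-Hochberg adjustment over the 14112 genes kept by filterByExpr. A single group has no coefficient to test, so the quasi-likelihood variance test and DESeq2 1.42.0 were alternatives. The spread test was checked on simulated counts of 13788 genes. At a size of 4-fold it detected 63 out of 100 altered genes, but at 2-fold only 11 out of 100. The sizes were simulated together in a single run, which gave 1 false call in all. Most simulated differences of 2-fold were therefore missed. Ratios between genes use counts per kb of exonic length. The members and gene lists were chosen with earlier results of these data known. All 38 members are named. Of the other lists, the called genes and the highest and lowest detected ones are named by rule, apart from 1 list that is not reported here. All further paralog ratios, the relatives named beside them, and Abi2 and Abi3 were chosen after their values were seen.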

Additional observations from a re-analysis of the deposited data

Results flagged for a closer look

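Within the 38 genes, 2 had a library far from the other 3 by Dixon's ratio, the gap from the extreme library to its nearest neighbour over the whole range, being above its 95% critical value for 4 samples. For Arpc1b the ratio was 0.947, with 363 CPM in library 3 against 266 to 272 CPM in the others. For Coro1b it was 0.889, with 211 CPM in library 3 against 169.6 to 174 CPM in the others. Chance flags about 1 in 20 groups, and 38 genes were examined. Neither gene was called for spread by edgeR, with adjusted p-values of 1.00.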

How the results depend on the processing

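All 38 genes were detected under every scaling, at 10 CPM and with each library left out, and their share of counts was 1.77 to 1.90% with a library left out, 1.86% of protein-coding counts and 1.86% without mitochondrially encoded genes. The number of genes called for spread was 1 under 3 other scalings, under TMM on filtered genes (added later) and without the filter, and 0 to 1 with a library left out. It was 0 by the quasi-likelihood variance test and 0 by DESeq2. For Ezr the adjusted p ran up to 0.889, by the quasi-likelihood test, which called no gene of the table. The number of genes highest in library 3, whose alternatives were chosen after seeing the data, was 24 to 29 under the other scalings. There 18.8 to 37.8% of all tested genes were highest in library 3. It was 14 when scaled on homeostatic markers (6.70% of all tested genes), and 27 to 33 with 1 of the other libraries left out. A gene highest in library 3 stays so, apart from rescaling, when another library is removed. The range of 27 to 33 is therefore no check of the pattern. The share over all tested genes with a library left out is not given here. The ratio of Dock8 to Dock2 turned to -0.06 on the log2 scale with the longest coding transcript, and that of Vasp to Evl, which ranged from -0.067 to 0.002 with a library left out, to 0.002 without replicate 3; 75 other values of the 11 ratios kept their direction. No paired analysis was possible because the series has 1 group.

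With 4 libraries of 1 group and no control, a spread of modest size in a gene cannot be told from the trend, and a gene that misses the threshold is not shown to be steady. Genes with little unique sequence are uncertain in level.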
